A study of Mus musculus with 4 samples.

Results

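Tumour-like cells with little or no CD45 were found among cells that had been selected on beads for CD45 in a droplet-based single-cell RNA sequencing study of liver metastases. A barcode was taken as tumour-like when it had at least 300 detected genes, under 15% mitochondrial UMIs, at least 3 UMIs over Tm4sf1, Hmga2 and Msln together, and at most 1 UMI of Ptprc, the gene of CD45. It also had C1qa, C1qb and C1qc under 0.5% of its UMIs, and Col3a1 and Dcn under 0.05%. This gave 702 of 50062 deposited barcodes. Because Tm4sf1, Hmga2, Msln, Ptprc, the C1q genes, Col3a1 and Dcn chose the members, their levels are descriptions and support nothing.

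The tumours were liver metastases of MC38, a mouse colon carcinoma line, in C57BL/6J mice, and the design crosses diet with the tumour line. HFD_shYap came from high-fat diet mice with the shYap derivative of MC38, a knockdown of Yap, and LFD_shYap from low-fat diet mice with the same derivative. HFD_WT came from high-fat diet mice with unmodified MC38, and LFD_WT from low-fat diet mice with unmodified MC38. Each combination had 1 library, so none was replicated. All 4 libraries shared the strain, the tissue, the bead selection and the 10x 3′ chemistry. The titles of all 4 name WT mice, so the wild-type host genotype was shared too. In the group names WT stands for unmodified MC38. The labels do not give the number of mice per library, the duration of the diets, the shRNA sequence or whether the derivative is a clone. For LFD_shYap the sample title, followed here, names low fat, but the entry under treatment names high fat.

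Carcinoma cells do not express CD45, the pan-leukocyte surface phosphatase, so a bead selection for CD45 is meant to leave them behind. YAP and TAZ, encoded by Yap1 and Wwtr1, are transcriptional co-activators that bind TEAD factors in the nucleus and are held back by the kinases of the Hippo pathway. When oxygen is short, hypoxia-inducible factors raise genes of glucose uptake, glycolysis and collagen hydroxylation in carcinoma cells, as in other cells.

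The 4 matrices held 106268471 UMIs in HFD_shYap, 127733073 in LFD_shYap, 144936859 in HFD_WT and 125854921 in LFD_WT. Tumour-like barcodes gave 1198513 UMIs in HFD_shYap, 7664605 in LFD_shYap, 5602576 in HFD_WT and 8510141 in LFD_WT. Values of HFD_shYap are therefore the least precise. That library stood apart in another way: its phagocytes carried Xist at 407 CPM (UMIs of the gene per 1000000 UMIs of the set) together with 105 CPM summed over 4 Y-linked genes, while phagocytes of the other 3 libraries had Xist at or under 0.0547 CPM and Y-linked RNA at 131 to 138 CPM. In tumour-like barcodes Xist was at 6.67 CPM in HFD_shYap and at 0 UMIs in the other 3, and the Y-linked sum lay between 4.11 and 6.07 CPM. Between 33 and 63 deposited barcodes were shared by each pair of libraries, and no tumour-like barcode was tumour-like in 2 libraries.

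There were 24 tumour-like barcodes among 7885 kept in HFD_shYap, 243 of 9945 in LFD_shYap, 177 of 12218 in HFD_WT and 258 of 12569 in LFD_WT. The share was 0.304% in HFD_shYap (exact 95% Clopper-Pearson interval 0.195 to 0.453%), 2.44% in LFD_shYap (2.15 to 2.77%), 1.45% in HFD_WT (1.24 to 1.68%) and 2.05% in LFD_WT (1.81 to 2.32%). HFD_shYap had the lowest share by a wide margin. It differed from HFD_WT by -1.14 points (Newcombe 95% interval -1.39 to -0.898) and from LFD_shYap by -2.14 points (-2.48 to -1.82). On the low-fat diet the shYap library was 0.391 points above WT (0.00259 to 0.789). HFD_WT differed from LFD_WT by -0.604 points (-0.933 to -0.278). These intervals cover counting error only, and bead selection can set such shares, so differences between the tumours cannot be told apart from differences in selection.

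Tumour-like barcodes were deep. Their median was 46238 UMIs in HFD_shYap, 28882 in LFD_shYap, 27246 in HFD_WT and 29522 in LFD_WT, against 13617.5, 10915.5, 11799 and 9108 in phagocytes of the same libraries in that order. Just inside the marker limit, 28 barcodes with 3 marker UMIs had Cst6 at 306 CPM, and just outside it 29 barcodes with 2 had 289 CPM. The collagen limit was not a natural gap: 282 members with Col3a1 and Dcn between 0.025 and 0.05% of UMIs had Cst6 at 446 CPM, and 340 barcodes between 0.05 and 0.1% had 417 CPM. Barcodes between 0.05 and 0.5%, all outside the rule, numbered 1030 with Cst6 at 331 CPM, while all 702 members together had 428 CPM. Cst6 encodes cystatin E/M, an inhibitor of cysteine proteases, and was not used by the rule.

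Of the genes described next, Tm4sf1, Hmga2, Msln and Ptprc belong to the rule, which fixed their difference from leukocytes, and Cst6 does not. Tm4sf1, a tetraspanin-like membrane protein used by the rule, was at 861 CPM in HFD_shYap, 748 in LFD_shYap, 1105 in HFD_WT and 1001 in LFD_WT, against 2.65 to 14.6 CPM in phagocytes. Hmga2, an architectural chromatin protein of embryonic cells, was at 185 to 275 CPM against at most 3.55, and Msln, the surface glycoprotein mesothelin, at 200 to 363 CPM against at most 5.22. Cst6 was at 238 CPM in HFD_shYap, 396 in LFD_shYap, 368 in HFD_WT and 524 in LFD_WT, with 1.21 to 7.57 CPM in phagocytes. HFD_shYap was the lowest and LFD_WT the highest for Cst6. At least 1 Cst6 UMI was present in 75% of members of HFD_shYap, 92.6% of LFD_shYap, 87.6% of HFD_WT and 96.5% of LFD_WT, and in 1.5 to 3.35% of phagocytes, which should lack it and whose median depth was lower as given above. Ptprc, limited by the rule, was at 1.67 to 4.82 CPM in the members, with 317 to 362 CPM in phagocytes.

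**Figure D1:**
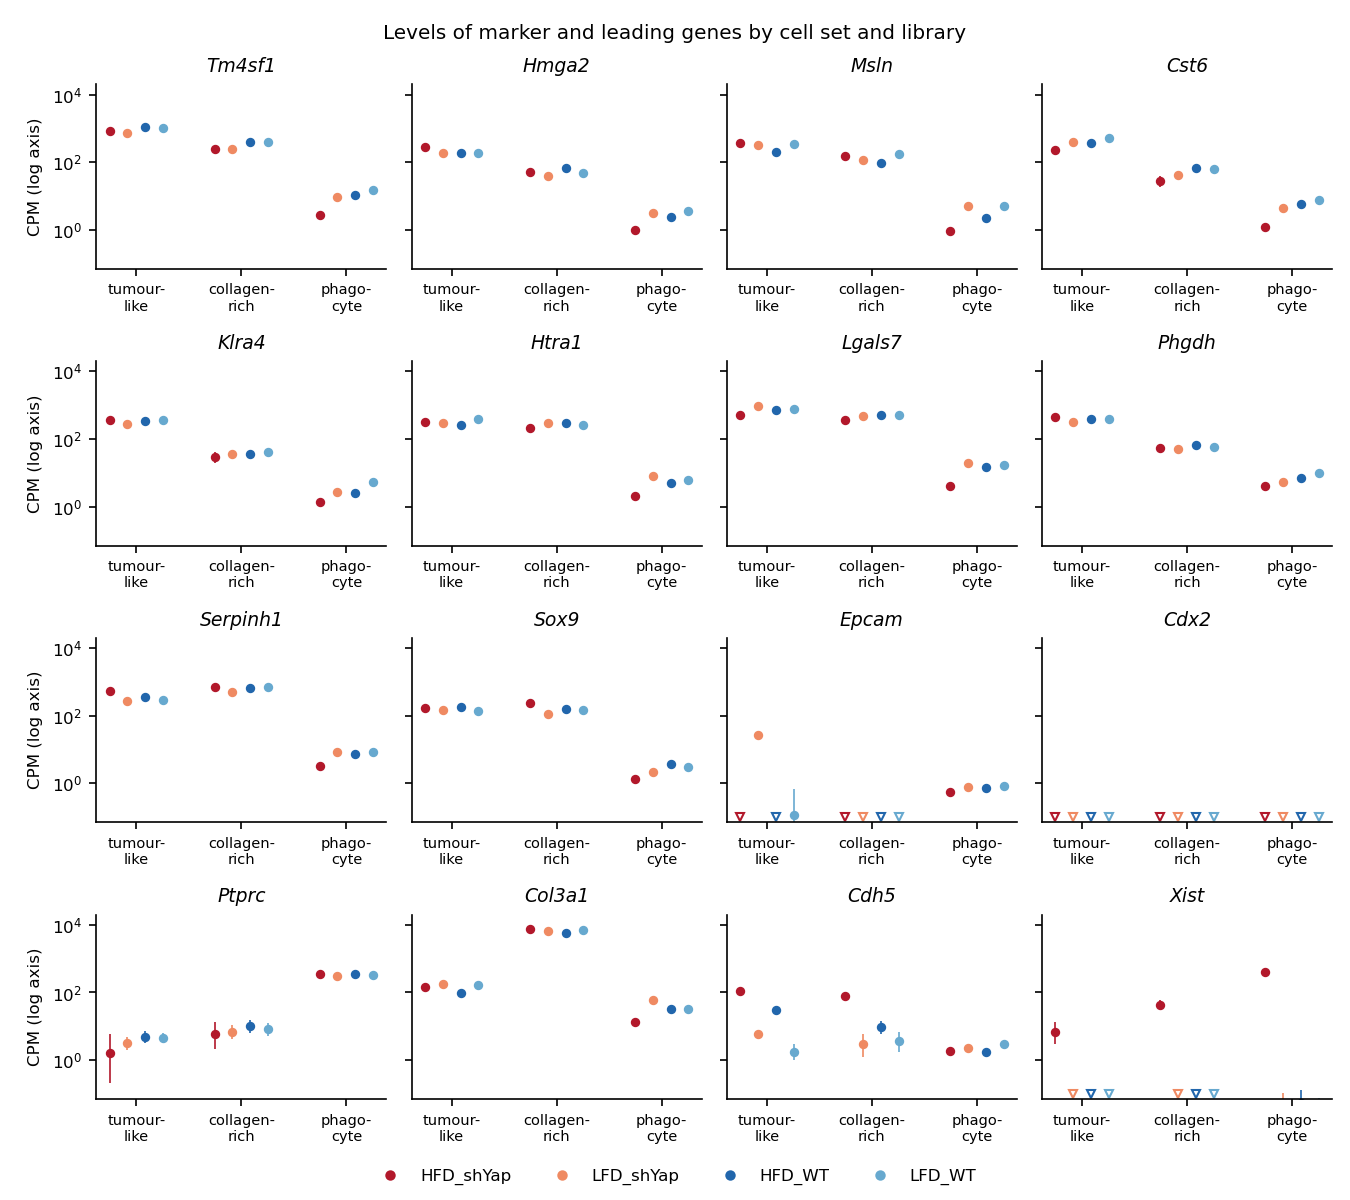
Levels of 16 marker and leading genes in tumour-like, collagen-rich and phagocyte barcodes, as CPM on a log axis, with 1 point per library (HFD_shYap, LFD_shYap, HFD_WT, LFD_WT) and exact 95% Poisson intervals, open triangles marking 0 UMIs. Cst6 and Phgdh stand above phagocytes in every library, and Xist is seen in HFD_shYap.

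Markers of other cell types were low but not absent. The 5 leukocyte markers were all detected and summed to 0.648% of the phagocyte level in HFD_shYap, 1.68% in LFD_shYap, 2.46% in HFD_WT and 2.66% in LFD_WT. The 6 endothelial markers summed to 293 CPM in HFD_shYap, 12.1 in LFD_shYap, 63.4 in HFD_WT and 5.17 in LFD_WT, so both high-fat libraries were above both low-fat ones. At least 3 UMIs of endothelial genes were present in 5 members of HFD_shYap, 4 of LFD_shYap, 10 of HFD_WT and 2 of LFD_WT. Counting also markers of hepatocytes, bile duct, mesothelium and fibroblasts, 35 of the 702 members carried another lineage, or 20.8% of HFD_shYap, 2.88% of LFD_shYap, 9.60% of HFD_WT and 2.33% of LFD_WT. Without these 35 the endothelial sum was 3.68 CPM in HFD_shYap, 1.48 in LFD_shYap, 8.16 in HFD_WT and 2.04 in LFD_WT. The same markers helped to choose the 35, so that fall was fixed in advance. Comparisons of tumour line and diet are therefore given with all members and, where stated, without these 35 barcodes, a choice made after seeing the data.

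The label "tumour-like" was held to carcinoma genes as well. Of 8 intestinal epithelial markers, Cdx1 and Cdx2, the intestinal master regulators, had 0 UMIs in members of every library. Epcam, the epithelial adhesion molecule, was at 0 UMIs in HFD_shYap and HFD_WT, at 27.4 CPM in LFD_shYap and at 0.118 CPM in LFD_WT, and without the 35 barcodes it was at 0.135 CPM in LFD_shYap. The keratins Krt8 and Krt18 behaved alike: 110 and 97.2 CPM in LFD_shYap became 4.04 and 0.269 CPM. Sox9, a transcription factor of progenitor and biliary cells, was at 174 CPM in HFD_shYap, 149 in LFD_shYap, 187 in HFD_WT and 133 in LFD_WT. Vim, the intermediate filament of mesenchymal cells, was at 4888, 5292, 4503 and 4508 CPM in the same libraries. Outside the genes of the rule, the name tumour-like rests on Cst6 alone among the markers, since Cdx1 and Cdx2 were at 0 UMIs in all members. Epcam was among the bile duct markers that chose the 35 barcodes. Its fall without them was therefore fixed in advance and says nothing about identity.

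The genes that led over phagocytes covered calcium-binding S100 proteins, galectins, contractile proteins, collagen chaperones and serine synthesis. Among 440 genes with at least 200 CPM in every library, the 24 with the highest ratio lay between 7.91 and 113 times the phagocyte level. Klra4, a gene of the Ly49 receptor family whose near-identical copies make its counts uncertain, was at 365 CPM in HFD_shYap, 284 in LFD_shYap, 341 in HFD_WT and 356 in LFD_WT, with 1.40 to 5.14 CPM in phagocytes. Phgdh, the first enzyme of serine synthesis, was at 440 CPM in HFD_shYap, 317 in LFD_shYap, 396 in HFD_WT and 400 in LFD_WT, and Lgals7, galectin-7, at 507, 950, 710 and 755 CPM. Serpinh1, the collagen chaperone HSP47, was at 527 CPM in HFD_shYap, 280 in LFD_shYap, 368 in HFD_WT and 286 in LFD_WT. S100a6 was at 13381 CPM in HFD_shYap, 17754 in LFD_shYap, 15853 in HFD_WT and 19057 in LFD_WT. The other leading genes were Htra1, Pcolce, Tpm2, Oaf, Cald1, Bgn, Sparc, Tpm1, Igfbp6, Actn1, Anxa1, Tuba1a, S100a4, Lgals1, S100a11, Dut, Ybx3, Cxcl1 and Mt2. Some of these varied between libraries. Mt2, a metallothionein, was at 894 CPM in HFD_shYap, 1657 in LFD_shYap, 645 in HFD_WT and 481 in LFD_WT, and Anxa1, a membrane-binding annexin, at 613, 1263, 385 and 682 CPM in the same libraries.

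The nearest other population was the collagen-rich one, 610 barcodes also low in Ptprc and C1q but with Col3a1 and Dcn at or above 0.5% of UMIs. It shared Serpinh1, at 720, 500, 662 and 715 CPM in HFD_shYap, LFD_shYap, HFD_WT and LFD_WT, and 442 of its barcodes also had at least 3 marker UMIs. The inflammation and acute phase list, led by S100a6, took 2.23, 1.47, 2.03 and 1.90% of its UMIs in the same libraries. In tumour-like barcodes that list took 2.09, 2.61, 2.36 and 2.66%. A lead over phagocytes therefore need not set a gene apart from the collagen-rich population. The sets were divided by collagen content, so the contrast is a description. EdgeR's quasi-likelihood fit with the library as a block called 2886 genes higher in tumour-like barcodes (26.9% of 10723 tested) and 2799 lower (26.1%). Leaving out the 35 barcodes, it called 2742 higher and 3260 lower.

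Cell division genes made the clearest group on the tumour-like side. All 22 genes of the cell cycle list were called higher, with a median log2 fold change of 3.61 beside -0.04 over all genes. Birc5, which encodes survivin, was at 216 CPM in tumour-like and 3.97 in collagen-rich barcodes of HFD_shYap, 206 and 12.7 in LFD_shYap, 273 and 15.2 in HFD_WT, and 304 and 27.2 in LFD_WT. Ube2c, a ubiquitin-conjugating enzyme of mitotic exit, was at 347 and 15.9 CPM in HFD_shYap, 386 and 21.4 in LFD_shYap, 512 and 16.5 in HFD_WT, and 336 and 53.3 in LFD_WT. Psat1, the aminotransferase that follows Phgdh in serine synthesis, was at 96.8 and 6.95 CPM in HFD_shYap, 81.2 and 3.63 in LFD_shYap, 78.9 and 5.91 in HFD_WT, and 129 and 13.4 in LFD_WT, a log2 fold change of 3.86.

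Matrix genes made the other side. Col1a2, a fibrillar collagen chain, was at 0.130 to 0.834 CPM in tumour-like barcodes and at 72.0 to 1274 CPM in collagen-rich ones, with a log2 fold change of -9.75. Serpina3n, a protease inhibitor, and Ccdc80, a matrix protein, were at or under 0.834 CPM in tumour-like barcodes of all 4 libraries, with log2 fold changes of -8.13 and -7.85. Of the basement membrane and matrix list 13 of 16 genes were called lower and none higher, with a median of -1.5. Of the interferon response list 17 of 22 were called lower, with a median of -1.41, and of the YAP/TAZ-TEAD target list 3 of 20 were called higher and 10 lower.

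**Figure D2:**
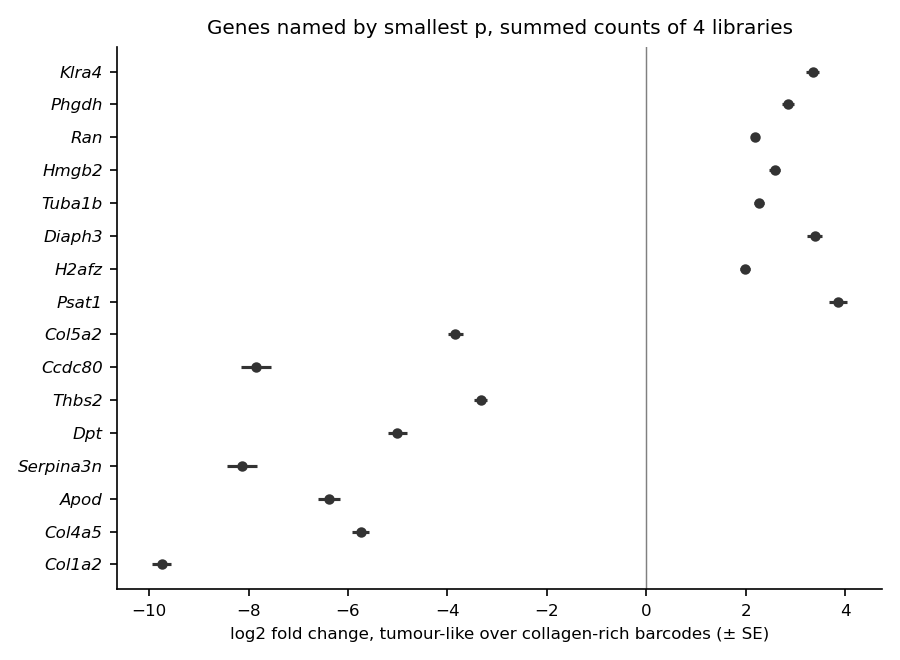
Log2 fold change of tumour-like over collagen-rich barcodes, with its approximate SE, for the 8 genes of smallest p in each direction. Klra4, Phgdh and Psat1 lie to the right with dividing-cell genes, and Col1a2 lies farthest to the left at -9.75.

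The share of members with a UMI of Mki67 or Top2a, genes of dividing cells, was above that of collagen-rich barcodes in each library. After thinning each barcode to 3000 UMIs it was 28.6% in HFD_shYap (exact 95% interval 11.3 to 52.2%, n = 21 barcodes), 36.4% in LFD_shYap (30.3 to 42.8%, n = 239), 44.6% in HFD_WT (37.0 to 52.5%, n = 168) and 49.0% in LFD_WT (42.7 to 55.3%, n = 255). Collagen-rich barcodes had 5.13, 3.59, 3.21 and 8% in the same libraries, and phagocytes 16.7, 14.1, 22.1 and 19.8%. Unthinned, the members' shares were 50% in HFD_shYap, 60.9% in LFD_shYap, 63.3% in HFD_WT and 79.8% in LFD_WT. When the 35 barcodes were left out, the thinned shares were 35.3% in HFD_shYap, 34.1% in LFD_shYap, 39.1% in HFD_WT and 45.4% in LFD_WT. The unthinned shares were then 52.6, 61.9, 63.75 and 80.6% in the same order, close to those with all members. Thinning was a single random draw made anew when the members changed, so shifts between versions also hold the noise of the draw. In LFD_WT the count of such members fell from 125 to 113 when 6 barcodes were left out. The order of both shYap libraries below both WT ones did not hold in every version. With Col3a1 and Dcn under 0.02% LFD_shYap had 39.7% and HFD_WT 37.5%, though shYap stayed below WT within each diet. With the limit at 0.5% and no other lineage markers HFD_shYap had 27.7% and HFD_WT 26.8%. Thinning left out 3, 4, 9 and 3 members.

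Yap1, the gene named by the knockdown, was at 20.9 CPM in HFD_shYap (25 UMIs) and 15.7 CPM in HFD_WT (88 UMIs), a ratio of 1.33 (exact 95% interval 0.816 to 2.09). It was at 15.7 CPM in LFD_shYap (120 UMIs) and 19.0 CPM in LFD_WT (162 UMIs), a ratio of 0.822 (0.644 to 1.05). Both intervals include 1. With the 35 barcodes left out the ratio was 1.51 (0.907 to 2.42) between HFD_shYap and HFD_WT and 0.777 (0.603 to 0.999) between LFD_shYap and LFD_WT, whose interval just leaves out 1. In edgeR's fit over both diets the log2 fold change was 0.03 ± 0.30 (SE, adjusted p = 0.999). A Yap1 UMI was found in 54.2% of members of HFD_shYap, 35.8% of LFD_shYap, 36.2% of HFD_WT and 43.4% of LFD_WT, and in 0.235 to 0.739% of phagocytes. Such shares rise with depth, and members of HFD_shYap had the highest median depth and phagocytes a lower one, as given above. The share in HFD_shYap was 13 of 24 (exact 95% interval 32.8 to 74.4%). Wwtr1, the gene of the paralogue TAZ, was at 116 CPM in HFD_shYap, 102 in LFD_shYap, 98.3 in HFD_WT and 62.4 in LFD_WT, with a ratio of 1.64 (1.46 to 1.83) between LFD_shYap and LFD_WT and of 1.18 (0.972 to 1.42) between HFD_shYap and HFD_WT. Leaving out the 35 barcodes gave 1.66 (1.48 to 1.86) on the low-fat and 1.07 (0.857 to 1.32) on the high-fat diet. Of the DNA-binding partners, Tead1 was at 80.1, 82.3, 68.2 and 107 CPM in HFD_shYap, LFD_shYap, HFD_WT and LFD_WT, and Tead2 at 27.5 to 29.1 CPM.

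The median of the YAP target list lay above 0 on the high-fat diet and below 0 on the low-fat diet. The list's median log2 ratio was 0.44 between HFD_shYap and HFD_WT, beside 0.08 over all genes, and -0.19 between LFD_shYap and LFD_WT, beside -0.10. Leaving out the 35 barcodes, it was 0.50 between HFD_shYap and HFD_WT and -0.21 between LFD_shYap and LFD_WT. The difference between diets was not tested. Ankrd1, a muscle ankyrin-repeat protein and common YAP reporter, was at 46.7 CPM in HFD_shYap and 26.6 in HFD_WT, but at 64.1 in LFD_shYap and 84.5 in LFD_WT. Axl, a receptor tyrosine kinase, went the same way, with 126 CPM in HFD_shYap and 93.2 in HFD_WT, and 108 in LFD_shYap and 136 in LFD_WT. Ccn1, a secreted matricellular protein, was at 112 CPM in HFD_shYap and 52.3 in HFD_WT, and at 91.5 in LFD_shYap and 61.6 in LFD_WT. F3, the gene of tissue factor, which starts coagulation, was at 102 CPM in HFD_shYap, 36.8 in LFD_shYap, 12.1 in HFD_WT and 10.7 in LFD_WT, both shYap libraries above both WT ones. Its log2 fold change was 2.40 ± 0.29 (SE, edgeR adjusted p = 0.0037). Without the 35 barcodes F3 kept the same size at 2.39 ± 0.32 but did not pass (edgeR adjusted p = 0.0674).

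Over all genes edgeR called 23 higher in the libraries labelled shYap (0.208% of 11052) and 5 lower (0.0452%). Of the 23, 17 had over 50% of their UMIs in the 21 barcodes with endothelial genes, among them Igfbp7, an insulin-like growth factor binding protein of vessels, at 579, 43.1, 129 and 5.05 CPM in HFD_shYap, LFD_shYap, HFD_WT and LFD_WT. On the YAP target list the calls were Ccn2, F3 and Igfbp3, 3 of 21, and Igfbp3 was at 213, 2.74, 50.3 and 0.353 CPM with all members and at 1.84, 0.135, 1.02 and 0 CPM without the 35. Without the 35 barcodes edgeR called 0 genes higher (0%) and 0 lower (0%) of 10721, with 462 at an unadjusted p under 0.05, and DESeq2 called 5. With the wider collagen limit of 0.5% and without other lineage markers it called 3 higher (0.0253% of 11876), which were F3, Krt8 and Aspn, and 3 lower (0.0253%), which were Ccl12, Cxcl3 and Tslrn1. The 5 genes called lower with all members were Ccl12, Ccl8, Pf4, Lyz2 and Cd74, genes of macrophages. Ccl12 was at 5.01 CPM in HFD_shYap, 6.00 in LFD_shYap, 30 in HFD_WT and 27.3 in LFD_WT, with 275 to 842 CPM in phagocytes. Leukocyte markers moved in the same direction in the members, as given above, and their part in these calls was not tested.

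In pairs of libraries without the 35 barcodes, 220 genes were at least 2-fold higher in LFD_shYap than in LFD_WT (2.02% of 10890) and 318 at least 2-fold lower (2.92%). HFD_shYap over HFD_WT gave 492 higher (5.2% of 9456) and 413 lower (4.37%). No test is possible between single libraries. With all members, the 35 included, Cryab, a small heat-shock protein, stood out in HFD_WT. It was at 5.84 CPM in HFD_shYap, 16.7 in LFD_shYap, 120 in HFD_WT and 4.70 in LFD_WT. Slpi, a secreted protease inhibitor, followed with 8.34, 18.7, 157 and 11.5 CPM in all members of the same libraries. Il11, a cytokine of the interleukin-6 family, was at 21.7, 53.1, 103 and 35.6 CPM in them. Those of the 35 barcodes that lay in HFD_WT held 12.5% of its members' UMIs. Levels of Cryab, Slpi and Il11 without them are not given here. The MHC class II presentation list was lower with shYap on both diets, with median log2 ratios of -1.72 for HFD_shYap over HFD_WT and -1.51 for LFD_shYap over LFD_WT. Its genes are those of antigen-presenting leukocytes. Cd74, the class II invariant chain, was at 40.9, 23.6, 112 and 60.3 CPM in all members of HFD_shYap, LFD_shYap, HFD_WT and LFD_WT. In phagocytes of the same libraries it was at 4063, 2068, 5802 and 1416 CPM.

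**Figure D3:**
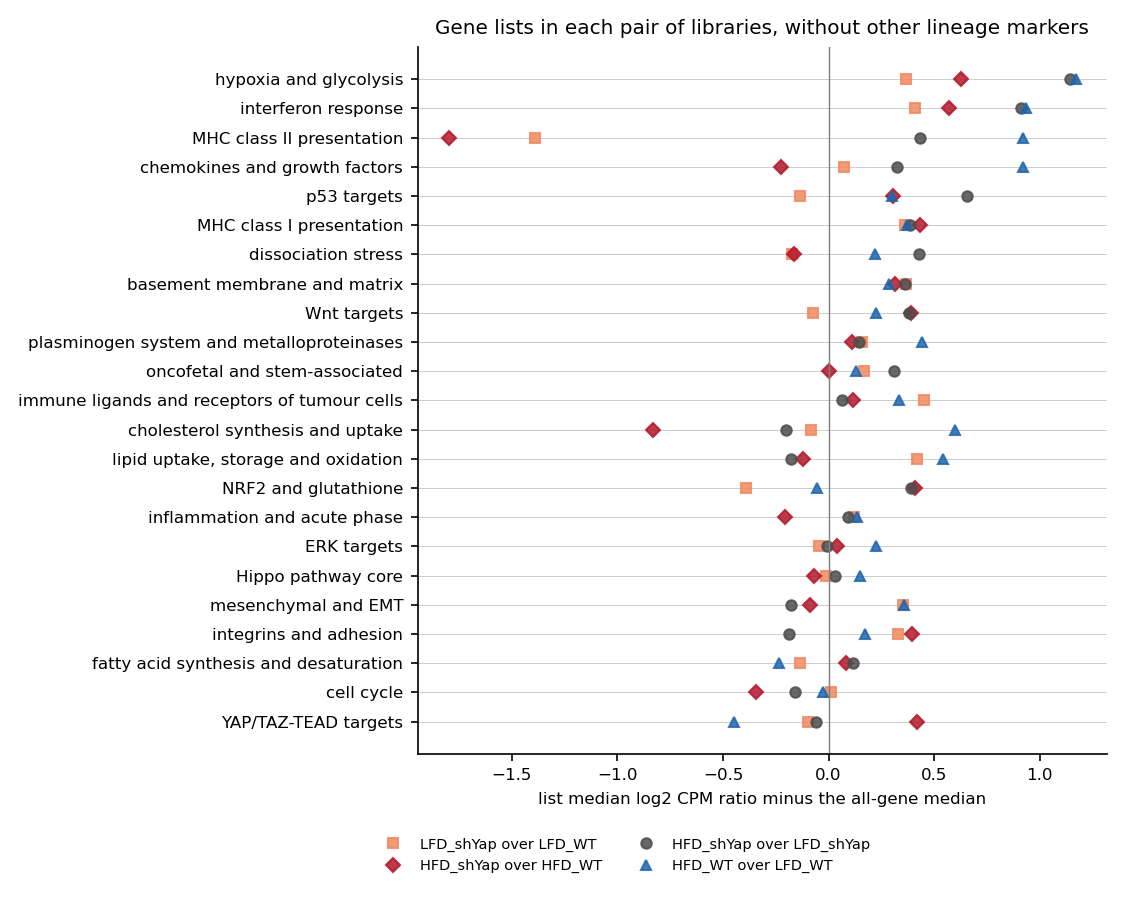
Median log2 CPM ratio of each gene list minus the median over all genes, for the 4 pairs of libraries, without the 35 barcodes with other lineage markers. Hypoxia and glycolysis lies to the right for both comparisons of diet, and MHC class II presentation to the left for both comparisons of tumour line.

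In the same fit more genes passed for diet than for tumour line. EdgeR called 199 genes higher on the high-fat diet (1.8% of 11052) and 25 lower (0.226%). Of the 199, 102 had over 50% of their UMIs in the 21 barcodes with endothelial genes. Ctla2a, a cathepsin inhibitor of vessels and lymphocytes, was at 450 CPM in HFD_shYap, 12.1 in LFD_shYap, 354 in HFD_WT and 10.3 in LFD_WT, and at 3.68, 3.77, 4.89 and 5.29 CPM in the same libraries without the 35. Without the 35 barcodes 15 genes were called higher (0.14% of 10721) and 1 lower (0.00933%), 815 had an unadjusted p under 0.05, and DESeq2 called 32. With the wider collagen limit and without other lineage markers 83 were higher (0.699% of 11876) and 11 lower (0.0926%). Called in all 3 versions were 14 genes, namely AA467197, Ankrd37, Dcn, Ero1l, Fn1, Fxyd1, Higd1a, Mgarp, Ndrg1, P4ha2, Pfkp, Plod2, Slc16a3 and Slc2a1. They are not a set that held in every version: without only the 21 barcodes with endothelial genes, 1 gene was called for diet. Dcn belongs to the rule. P4ha2 and Plod2 hydroxylate collagen, and 6 of the 14 were on the hypoxia and glycolysis list.

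Genes of glucose use and oxygen shortage were higher on the high-fat diet in both tumour lines. Ero1l, which encodes the oxidase ERO1α of disulfide formation in the endoplasmic reticulum, was at 841 CPM in HFD_shYap and 74.6 in LFD_shYap, and at 182 in HFD_WT and 47.6 in LFD_WT. The ratios were 11.3 (10.2 to 12.5) between the shYap libraries and 3.81 (3.40 to 4.29) between the WT libraries. EdgeR gave a log2 fold change of 2.68 ± 0.30 (SE, adjusted p = 0.000181), and 2.81 ± 0.30 (adjusted p = 0.00564) without the 35 barcodes. Ndrg1, a stress gene raised when oxygen is short, was at 238 CPM in HFD_shYap and 59.2 in LFD_shYap, and at 141 in HFD_WT and 39.5 in LFD_WT. Its log2 fold change was 1.88 ± 0.22 (edgeR adjusted p = 0.000271). P4ha2, which is not on the list, was at 75.9 CPM in HFD_shYap and 10.8 in LFD_shYap, and at 41.2 in HFD_WT and 6.46 in LFD_WT, with a log2 fold change of 2.70 ± 0.25 (edgeR adjusted p = 3.08e-05). For these 3 genes both high-fat libraries lay above both low-fat ones.

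Glucose entry and glycolysis followed. Slc2a1, the glucose transporter GLUT1, was at 177 CPM in HFD_shYap and 29.7 in LFD_shYap, and at 66.4 in HFD_WT and 27.4 in LFD_WT, with a log2 fold change of 1.88 ± 0.28 (edgeR adjusted p = 0.0015). Pfkp, a phosphofructokinase of the committed step of glycolysis, was at 49.2 CPM in HFD_shYap and 12.4 in LFD_shYap, and at 34.8 in HFD_WT and 9.87 in LFD_WT. Slc16a3, the lactate exporter MCT4, was at 110 CPM in HFD_shYap and 39.7 in LFD_shYap, and at 99.2 in HFD_WT and 42.8 in LFD_WT. Pgk1, which makes ATP in glycolysis, was at 869 CPM in HFD_shYap and 365 in LFD_shYap, and at 590 in HFD_WT and 311 in LFD_WT. Bnip3, a mitochondrial receptor of mitophagy, was at 192, 93.8, 109 and 21.9 CPM, and Ankrd37, an ankyrin-repeat protein, at 92.6, 29.6, 55.7 and 16.2 CPM in HFD_shYap, LFD_shYap, HFD_WT and LFD_WT. Gapdh, at 5017, 2671, 2844 and 2558 CPM in the same libraries, and Ldha, which makes lactate, at 1159, 524, 753 and 485 CPM, did not pass (edgeR adjusted p = 0.649 for Gapdh and 0.0932 for Ldha).

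Over the hypoxia and glycolysis list, 14 of 22 genes were called higher on the high-fat diet and none lower, with a median log2 fold change of 1.18 beside -0.01 over all genes. Without the 35 barcodes 6 of 21 were called and the median was 1.20, and with the wider collagen limit and no other lineage markers 15 of 21 were called with a median of 1.30. All genes tested had a positive fold change in each of these 3 versions. Without only the barcodes with endothelial genes, 0 of 21 were called and the median was 1.22. Adm encodes the vessel-dilating peptide adrenomedullin, and its 20 CPM in HFD_shYap became 0 UMIs without the 35. In pairs without the 35, 15 of 20 genes were at least 2-fold higher in HFD_shYap than in LFD_shYap, where 607 of all genes were (6.09% of 9969) and 376 lower (3.77%). In HFD_WT against LFD_WT 12 of 21 were at least 2-fold higher, where 400 of all genes were (3.72% of 10740) and 463 lower (4.31%). The comparison of HFD_WT with LFD_WT uses neither the library with conflicting labels nor the one with 24 members. With all 4 libraries and diet alone in the fit, none of the list was called, with a median of 1.13. Fits without 1 library also left out tumour line, so their calls cannot show dependence on a single library. Their list medians lay between 0.90 and 1.32. None was called when LFD_shYap was taken as high fat, as its treatment entry says, with a median of 1.18. For tumour line, 21 of the 22 had a positive fold change with a median of 0.43, and none was called.

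**Figure D4:**
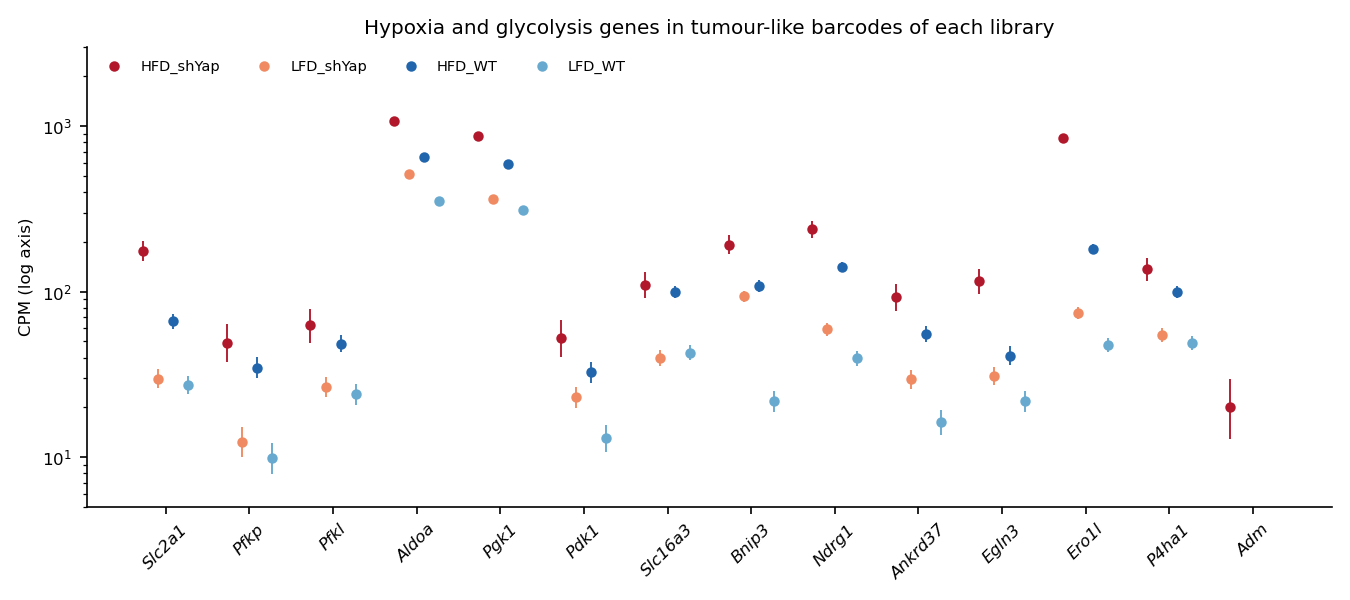
CPM on a log axis, with exact 95% Poisson intervals, of the 14 hypoxia and glycolysis genes called for diet with all 702 members. HFD_shYap and HFD_WT lie above LFD_shYap and LFD_WT for each gene within a tumour line, and the 3 values of Adm under 5 CPM fall below the axis.

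The hypoxia and glycolysis list was measured in the other cells of the same libraries as well. It took 0.504% of phagocyte UMIs in HFD_shYap and 0.355% in LFD_shYap, and 0.554% in HFD_WT and 0.398% in LFD_WT. In collagen-rich barcodes it took 0.449% in HFD_shYap and 0.333% in LFD_shYap, and 0.508% in HFD_WT and 0.322% in LFD_WT. Both high-fat libraries thus lay above both low-fat ones in these cells too. Ero1l was at 82.7 CPM in phagocytes of HFD_shYap and 43.4 in LFD_shYap, and at 91.3 in HFD_WT and 50.3 in LFD_WT. Ndrg1 was at 42.2, 18, 44.2 and 15.2 CPM in phagocytes of HFD_shYap, LFD_shYap, HFD_WT and LFD_WT. No test of diet was made in phagocytes or collagen-rich barcodes, and the part of phagocyte RNA in the members' values was not tested.

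Promoters are shown for 4 members of the list that were called with and without the 35 barcodes, to set the sequence beside the expression. Each runs from 250 bases before to 50 after the start of transcription, 5′ to 3′ on the gene's strand, from RefSeq on GRCm38.p6. Capitals mark ACGTG or GCGTG, the core of the hypoxia response element, on either strand (CACGT or CACGC when read on the other), where neighbouring matches can overlap. Slc2a1 is at chr4:119108495-119108794 (plus strand, 2 matches), Pfkp at chr13:6648722-6649021 (minus strand, 4 matches), Ankrd37 at chr8:45999801-46000100 (minus strand, 4 matches) and Slc16a3 at chr11:120948817-120949116 (plus strand, 2 matches).
Slc2a1: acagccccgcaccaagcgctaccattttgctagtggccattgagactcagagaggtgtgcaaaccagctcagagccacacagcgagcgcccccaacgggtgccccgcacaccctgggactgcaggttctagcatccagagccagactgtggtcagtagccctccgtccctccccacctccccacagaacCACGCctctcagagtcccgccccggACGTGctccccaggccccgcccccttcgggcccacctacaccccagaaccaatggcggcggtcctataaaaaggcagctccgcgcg
Pfkp: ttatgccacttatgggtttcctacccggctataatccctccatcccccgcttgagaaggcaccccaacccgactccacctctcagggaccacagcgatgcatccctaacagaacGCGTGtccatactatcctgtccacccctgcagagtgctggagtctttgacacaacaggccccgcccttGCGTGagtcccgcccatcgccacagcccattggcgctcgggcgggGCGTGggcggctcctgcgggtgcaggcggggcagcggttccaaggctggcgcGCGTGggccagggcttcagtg
Ankrd37: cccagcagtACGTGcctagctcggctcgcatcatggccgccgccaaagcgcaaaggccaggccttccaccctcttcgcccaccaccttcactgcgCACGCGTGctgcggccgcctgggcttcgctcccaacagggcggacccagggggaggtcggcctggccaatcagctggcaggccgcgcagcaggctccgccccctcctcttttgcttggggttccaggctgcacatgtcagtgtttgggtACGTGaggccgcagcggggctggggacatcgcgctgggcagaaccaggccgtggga
Slc16a3: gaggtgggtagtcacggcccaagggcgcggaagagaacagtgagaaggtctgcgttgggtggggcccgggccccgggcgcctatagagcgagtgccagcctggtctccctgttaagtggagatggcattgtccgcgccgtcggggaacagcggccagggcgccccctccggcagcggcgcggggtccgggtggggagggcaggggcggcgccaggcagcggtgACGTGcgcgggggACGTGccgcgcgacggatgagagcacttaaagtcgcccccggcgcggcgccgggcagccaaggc
Of the 22 genes of the list 20 were matched in the promoter table, and Ero1l and Ndrg1 were not. All 20 held at least 1 match in at least 1 promoter, beside 46.7% of 27025 genes. Counted by promoter instead of by gene, the background was 43.8% of 32851 promoters of the same 300 bases. By that count not every list promoter held a match: a promoter each of Hk1, Aldoa, Pkm, Vegfa and Pdk1 held 0. A match describes the letters and is not a binding site. Base composition was not matched.

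Single barcodes spread widely in the hypoxia and glycolysis list. Without the 35 barcodes the list took a median of 1.16% of UMIs per barcode in HFD_shYap (lowest 0.175%, highest 3.11%, 19 barcodes), 0.456% in LFD_shYap (0.163 to 2.61%, 236 barcodes), 0.586% in HFD_WT (0.0660 to 2.95%, 160 barcodes) and 0.438% in LFD_WT (0.0784 to 2%, 252 barcodes). The upper quartile of LFD_WT was passed by 16 of 19 barcodes of HFD_shYap (84.2%), 97 of 236 of LFD_shYap (41.1%) and 98 of 160 of HFD_WT (61.3%). Every library thus held high and low barcodes, with a longer upper tail than in LFD_WT in the other 3. Spearman's rho of the list with the cell cycle list across barcodes of a library was -0.22 in HFD_shYap, -0.06 in LFD_shYap, -0.32 in HFD_WT and 0.02 in LFD_WT, a description across cells that share a library and differ in depth.

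**Figure D5:**
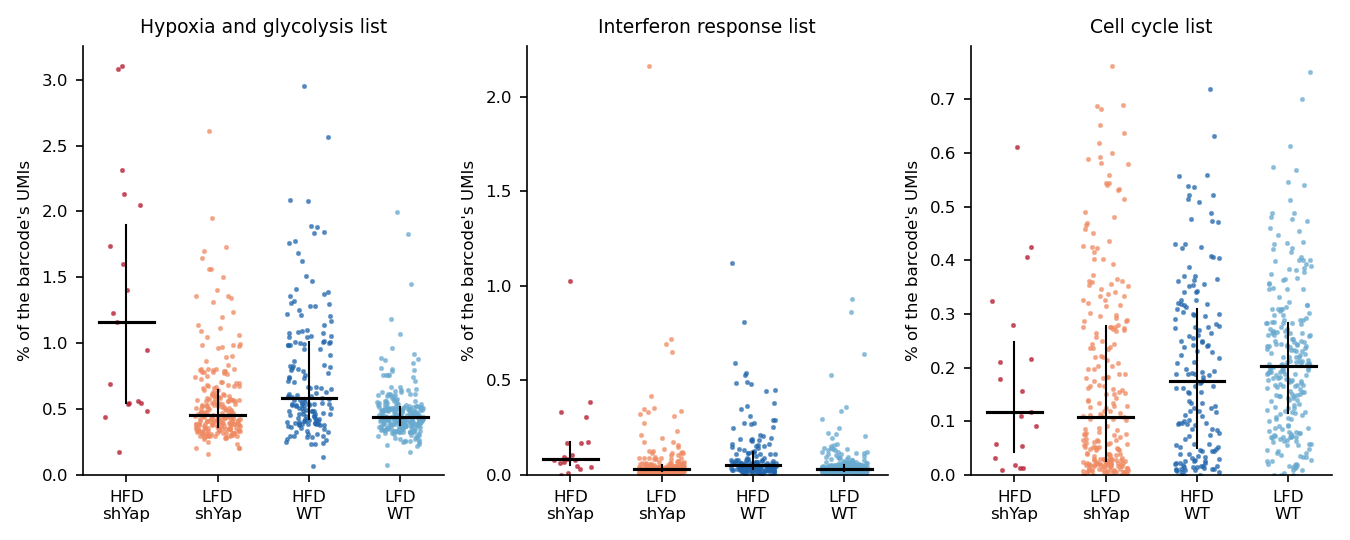
Percent of each barcode's UMIs in 3 gene lists, by library in the order HFD_shYap, LFD_shYap, HFD_WT, LFD_WT, without the 35 barcodes with other lineage markers; horizontal bars are medians and vertical bars quartiles. The hypoxia and glycolysis medians are 1.16, 0.456, 0.586 and 0.438%.

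Interferon-response genes were higher on the high-fat diet too, though fewer passed. With all members 7 of 22 genes were called higher and none lower, where 1.8% of all genes were called higher. The list's median log2 fold change was 1.09, beside -0.01 over all genes. Without the 35 barcodes Isg15 alone was called, with a median of 1.08, where 0.14% of all genes were called higher. Without only the barcodes with endothelial genes, 0 of 22 were called and the median was 1.19. Isg15, a ubiquitin-like modifier, was at 206 CPM in HFD_shYap and 70.8 in LFD_shYap, and at 104 in HFD_WT and 32.9 in LFD_WT, with a log2 fold change of 1.56 ± 0.23 (edgeR adjusted p = 0.00131). Cxcl10, a chemokine for T cells, was at 317 CPM in HFD_shYap and 184 in LFD_shYap, and at 410 in HFD_WT and 153 in LFD_WT. With all 4 libraries and diet alone in the fit, none of the 22 was called. Without HFD_shYap, in a fit that also left out tumour line, the median was 0.95. In collagen-rich barcodes the list took 0.139% of UMIs in HFD_shYap, 0.199% in LFD_shYap, 0.156% in HFD_WT and 0.178% in LFD_WT. Both high-fat libraries thus lay below both low-fat ones there. In phagocytes it took 0.213, 0.165, 0.226 and 0.240% in the same order, higher on high fat with shYap and lower with WT. No test of diet was made in these cells.

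Fewer genes were lower on the high-fat diet. Col6a2, a chain of collagen VI, was at 85.9 CPM in HFD_shYap and 243 in LFD_shYap, and at 74.4 in HFD_WT and 199 in LFD_WT. Its log2 fold change was -1.49 ± 0.22 (edgeR adjusted p = 0.00163), and it was the gene called lower without the 35 barcodes (-1.44 ± 0.21, adjusted p = 0.0327). It did not pass with the wider collagen limit and no other lineage markers (-0.91 ± 0.19, edgeR adjusted p = 0.0583). Fits without HFD_shYap or without HFD_WT left a single high-fat library and no term for tumour line. Whether the Col6a2 result depends on either library was therefore not tested. Nr2f1, an orphan nuclear receptor, was at 31.7 CPM in HFD_shYap and 109 in LFD_shYap, and at 37.1 in HFD_WT and 83.9 in LFD_WT, with a log2 fold change of -1.47 ± 0.26 (edgeR adjusted p = 0.00669). Tmem258, a subunit of the oligosaccharyltransferase, was at 113, 255, 115 and 261 CPM in HFD_shYap, LFD_shYap, HFD_WT and LFD_WT. Apoe, a lipid carrier made by macrophages, was at 209, 903, 503 and 1091 CPM in members and at 20739, 44490, 25158 and 34645 CPM in phagocytes of the same libraries, and its level in phagocytes followed the same order by diet.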

How the data were processed

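The data are UMI counts of 32285 genes per barcode in 4 filtered 10x 3′ matrices, deposited by the authors as raw counts without normalization. Their headers name Cell Ranger 6.0.0. A different version, 4.0.0, stands in the submitters' processing notes beside STAR 2.5.1 and the mm10 build. Groups follow the sample titles. The members and gene lists were chosen with earlier results of these data known.

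UMIs were summed over the tumour-like barcodes of each library and divided by the summed UMIs to give CPM, with exact 95% Poisson intervals. EdgeR 4.0.16 (R 4.3.3) fitted tumour line and diet together by quasi-likelihood with TMM scaling, its filter on low counts and Benjamini-Hochberg adjustment at 0.05. With 4 libraries this leaves 1 residual degree of freedom, which is the difference of the line effect between the diets. The p-values therefore rest on the effects of line and diet being additive. They do not measure spread between replicates, as no combination had any. The SE is the absolute log2 fold change divided by the square root of F. Tumour-like and collagen-rich sums were compared with the library as a block, which pairs sets of the same library. Single libraries were compared by CPM ratios without a test, and a count under 3 was set to 3 where genes were ranked by ratio. List medians in pairs use genes with at least 20 UMIs. DESeq2 1.42.0 was an alternative. Fits of line or diet without 1 library left out the other factor as well, so their counts do not isolate that library. No doublet caller was run; barcodes with at least 3 UMIs of another lineage were left out as an alternative. A count of 0 allows up to 3 counts, or 2.50 CPM in HFD_shYap, 0.391 in LFD_shYap, 0.535 in HFD_WT and 0.353 in LFD_WT. All intervals and floors cover counting error only.

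Named genes were those of the rule, 24 leading over phagocytes, up to 8 called per direction in each fit, the 5 highest and lowest ratios per pair, and list members of highest level or called, together with P4ha2, genes called in all 3 versions, Col6a2 and Krt18, some of which were chosen after their values were seen. In simulated counts edgeR recovered 92.5% of 200 genes changed 4-fold by diet and 16.5% of those changed 2-fold, and 93.5% and 27.5% for tumour line. For each factor it also called 6 unchanged genes at 4-fold and 1 at 2-fold. The changed genes were drawn from those with a mean of at least 20 UMIs, and all genes shared a single dispersion. Recovery of genes with fewer UMIs was therefore not tested.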

Additional observations from a re-analysis of the deposited data

Results flagged for a closer look

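The 10 genes below, given with their ratios of shYap over WT, had intervals on opposite sides of 1 on the 2 diets. With 1 library in each group the difference between diets was not tested. Values are CPM ratios with exact 95% intervals for counting error, of HFD_shYap over HFD_WT on the high-fat diet and of LFD_shYap over LFD_WT on the low-fat diet.

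Among YAP targets, Ankrd1 had 1.76 (1.27 to 2.40) on the high-fat diet and 0.758 (0.675 to 0.852) on the low-fat diet. Axl had 1.35 (1.12 to 1.62) on the high-fat and 0.792 (0.723 to 0.866) on the low-fat diet. Myof, a membrane repair protein, had 0.787 (0.626 to 0.981) on the high-fat and 1.13 (1.05 to 1.23) on the low-fat diet.

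Areg, a ligand of the EGF receptor on the list of ERK targets, had 0.339 (0.232 to 0.480) on the high-fat and 1.53 (1.24 to 1.89) on the low-fat diet. Cryab had 0.0485 (0.0194 to 0.101) on the high-fat and 3.55 (2.47 to 5.20) on the low-fat diet. Slpi had 0.0532 (0.0254 to 0.0984) on the high-fat and 1.62 (1.24 to 2.12) on the low-fat diet. Il11 had 0.211 (0.136 to 0.312) on the high-fat and 1.49 (1.28 to 1.74) on the low-fat diet. Pfn2, a profilin, had 1.47 (1.14 to 1.87) on the high-fat and 0.482 (0.418 to 0.554) on the low-fat diet. Dkc1, a pseudouridine synthase, had 1.31 (1.03 to 1.65) on the high-fat and 0.513 (0.455 to 0.578) on the low-fat diet. Lcn2, lipocalin-2, had a ratio of 0 on the high-fat diet (0 UMIs in HFD_shYap, 24 in HFD_WT) and of 461 on the low-fat diet (3321 UMIs in LFD_shYap, 8 in LFD_WT), and without the 35 barcodes with other lineage markers it was at 1.21 CPM in LFD_shYap.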

How the results depend on the processing

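The share of tumour-like barcodes moved with the limits of the rule. With Col3a1 and Dcn under 0.02% it was 0.140% in HFD_shYap, 1.25% in LFD_shYap, 0.712% in HFD_WT and 0.995% in LFD_WT. Under 0.5% it was 1.27, 5.51, 4.29 and 4.46%, and also without other lineage markers 1.08, 5.31, 3.93 and 4.34%. At least 2000 UMIs gave 2.77% in LFD_shYap and 2.57% in LFD_WT, Ptprc at 0 gave 1.23% in HFD_WT and 1.75% in LFD_WT, and C1q under 0.1% gave 1.79% in LFD_WT. The Mki67 or Top2a share under the 0.5% limit was 27.8% in HFD_shYap, 25.4% in LFD_shYap, 28.0% in HFD_WT and 35.4% in LFD_WT, and also without other lineages 27.7, 25.6, 26.8 and 34.8%. Thinning to 1500 UMIs gave 17.4, 22.6, 31.3 and 29.8% and no thinning 50, 60.9, 63.3 and 79.8%, in the same order. With collagen under 0.02% LFD_shYap had 39.7% and HFD_WT 37.5%. In LFD_shYap it was 30.2% with Ptprc at 0. Differences between these thinned shares also hold the noise of the random draw.

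The YAP target median between LFD_shYap and LFD_WT was -0.13 with Ptprc at 0, -0.12 with collagen under 0.02%, -0.30 under 0.5%, -0.31 also without other lineages, -0.25 over mean CPM and -0.088 with the all-gene median removed. Between HFD_shYap and HFD_WT it was 0.70 with Ptprc at 0, 0.64 without deep barcodes, 0.28 with the 0.5% limit and no other lineages, and 0.28 over mean CPM.

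The count of genes called for tumour line, 28, was 8 with mitochondrial UMIs under 10%, 9 with 5 marker UMIs, 8 with C1q under 0.1%, 94 with collagen under 0.02%, 3 with 2000 UMIs, and 0 without deep barcodes, without other lineages or without endothelial barcodes. It was 6 with the 0.5% limit and no other lineages, 11 with DESeq2 size factors, 227 without the low-count filter, and 0 with the treatment-field diet or with line alone. Here and below, leaving out a library for line or diet also dropped the other factor from the fit.
The diet count, 224, was 147 with 2000 UMIs, 107 without deep barcodes, 16 without other lineages, 1 without endothelial barcodes, 94 with the 0.5% limit and no other lineages, 132 with DESeq2, 408 without the filter, 0 with the treatment-field diet and 1 with diet alone. Leaving out a library gave 7 (HFD_shYap) to 176 (LFD_shYap), with 50 without HFD_WT and 107 without LFD_WT.
Without the 35 barcodes, line calls, 0, were 5 with DESeq2, 2 with its size factors, 33 with the treatment-field diet and 0 to 32 leaving out a library. Diet calls, 16, were 32 with DESeq2, 27 with the treatment-field diet, 0 with diet alone and 0 (LFD_WT) to 83 (HFD_WT) leaving out a library, with 63 without HFD_shYap. The hypoxia and glycolysis calls, 14, were 7 without deep barcodes, 6 without other lineages, and 0 without endothelial barcodes, with the treatment-field diet or with diet alone, and 0 to 10 leaving out a library. Tumour-like against collagen-rich gave 4324 to 5594 leaving out a library, 4532 with no replicate block and 4645 with DESeq2, against 5685.

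Reversed were Ctla2a for diet, at -0.066 without other lineages, -0.12 without endothelial barcodes and -0.91 with the 0.5% limit as well. For line, Cdh5 was -0.83, -0.96 and -0.90 in those versions and -1.29 without HFD_shYap, and without that library Fabp4 was -0.69, Gpihbp1 -1.91, Igfbp3 -3.10 and Igfbp7 -0.56. Aspn was -0.90 with the treatment-field diet, -0.50 without LFD_shYap and -0.88 without LFD_WT, and Krt8 was -6.12 without LFD_shYap. Leaving out HFD_WT gave the highest values, at 3.28 for Aspn, 4.92 for Cdh5, 5.99 for Fabp4, 6.14 for Gpihbp1, 8.06 for Igfbp3, 5.89 for Igfbp7 and 6.71 for Krt8. The cause was not tested.

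No paired analysis was possible because each combination of line and diet has 1 library, and the replicate numbers pair no samples for line or diet. Leaving out a library leaves no pair for the ratios. HFD_shYap, with 24 members, limits the depth.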
